A study of Homo sapiens with 2 samples.

Results

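The 9 genes of the EGF family of growth factor ligands, AREG, EREG, HBEGF, TGFA, BTC, EGF, EPGN, NRG1 and NRG2, were examined in A375 cells after THOC2 was silenced. Every probe that the deposited annotation names for them was taken, which gave 13 probes out of 58199 on the array and 9 genes out of 34757. The family was chosen from the measured values, because both AREG probes had a higher signal with THOC2 siRNA, so the AREG difference is a description and carries no test. A375 is an established melanoma cell line, and THOC2 is a subunit of the THO complex, which couples transcription to mRNA export. One culture was transfected with control siRNA (NC) and 1 with THOC2 siRNA (si-THOC2), RNA was taken 48 h later, and each RNA was hybridised to 1 single-color array. The 2 cultures shared the cell line and the medium, for which the labels and the methods give different recipes. The methods list several THOC2 siRNAs without a statement of which was used here. With 1 array per condition no difference has a replicate check, and no p-value can be given.

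The source names of the 2 samples oppose their titles and descriptions, and the titles and descriptions were followed. The 2 probes of the targeted gene, THOC2, gave a signal of 136 and 67.3 with NC and of 40.9 and 35.1 with THOC2 siRNA, or -1.42 and -0.63 on the log2 scale, which is the direction these titles give. The feature extraction software marked 42.3% of all probes with NC and 39.4% with THOC2 siRNA as well above background. The 25345 probes marked on either array were compared. Values are processed signals (background-subtracted intensity), and a log2 fold change is the difference of log2 signals after each array's 75th percentile was subtracted, positive where the signal was higher with THOC2 siRNA. That percentile was 6.62 in log2 units for NC and 6.31 for THOC2 siRNA, while 8 spike-in controls differed by a median of -0.04 between the arrays. Scaling on these controls therefore moved every log2 fold change by -0.27, so a value above 0 by less than that changes sign with it. Both scales are given for each measured ligand, and for receptors, pathway genes and neighbors of AREG as medians, means or counts. Values of THOC2 and of cell type markers are given on the 75th percentile scale only. Of the melanocyte lineage markers, 7 of 11 were well above background on both arrays, among them SOX10, MITF and MCAM. PMEL, TYR and TYRP1 were not on either array, and 1 of the 2 MLANA probes was on the THOC2 siRNA array only.

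EGF family ligands are made as membrane-bound precursors whose EGF-like domain is cut off by metalloproteinases, chiefly ADAM17 and ADAM10. AREG, EGF, TGFA and EPGN bind the receptor EGFR, HBEGF, BTC and EREG bind EGFR and ERBB4, and the neuregulins NRG1 and NRG2 bind ERBB3 and ERBB4. Bound receptors pair with each other or with ERBB2 and drive the RAS-ERK and PI3K pathways, and in melanoma such ligands can act on the tumor cells that release them. AREG, EREG, EPGN and BTC lie in 1 cluster on chromosome 4.

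The probe sequences of 2 ligands are shown because they are the bases whose hybridisation was measured. AREG probe 1 lay at chr4:75318293-75318352 (hg19, plus strand), and TGFA probe 2 lay at chr2:70683472-70683531 (hg19, minus strand). The annotation used here did not place any probe in exons or untranslated regions. From general knowledge of these coding sequences, the first reads the last codons of the amphiregulin precursor and the second the membrane-spanning segment of the TGFA precursor. Both are written 5′ to 3′ in the sense of the transcript.
AREG probe 1: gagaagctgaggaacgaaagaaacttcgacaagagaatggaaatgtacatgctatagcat
TGFA probe 2: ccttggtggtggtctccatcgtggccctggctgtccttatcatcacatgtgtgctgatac

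AREG alone of the 6 ligand genes measured on both arrays reached 2-fold, with 2 of 2 probes higher on the THOC2 siRNA array. AREG encodes amphiregulin, a low-affinity EGFR ligand that many cell types release in an autocrine manner. AREG probe 1 gave 2283 ± 228 with NC and 3898 ± 390 with THOC2 siRNA. Here ± is the error that the feature extraction software models for that spot. AREG probe 2, placed 2.23 kb further along at chr4:75320518-75320577, went from 5625 ± 563 to 9481 ± 948. In neither probe did the modeled error ranges of the 2 arrays overlap. That only restates the ratio of the signals, because this estimate was a near-constant fraction of the signal. The log2 fold change was 1.08 for probe 1 (2.12-fold) and 1.06 for probe 2 (2.09-fold), with a mean of 1.07 (2.10-fold). Repeated spots of other probes as bright as these differed with a technical SD of 0.05 on the log2 scale. The modeled error estimates gave an SE of 0.20 for each AREG probe. Neither error includes the difference between cultures. Signals before any scaling were already higher with THOC2 siRNA, by 1.71-fold and 1.69-fold. Scaled on the spike-in controls, the log2 fold changes were 0.81 and 0.79 (1.75-fold and 1.73-fold), higher but under 2-fold. Both probes read the same gene on the same arrays, so they are not replicates of the condition. A near-identical copy of AREG was annotated in older assemblies, and the probes cannot tell transcripts of such a copy apart.

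**Figure D1:**
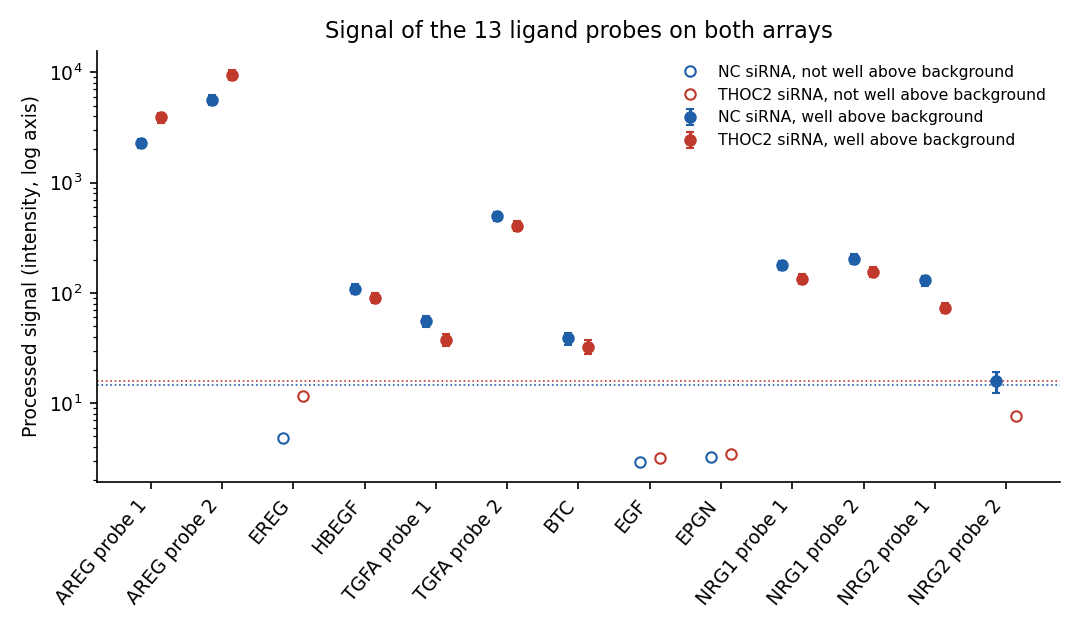
Processed signal (intensity, log axis) of the 13 ligand probes on the NC array (blue) and the THOC2 siRNA array (red). Bars are the error estimate modeled by the feature extraction software, and open circles were not well above background. Dotted lines mark each array's dimmest signal that passed the background mark (14.7 and 15.9). The THOC2 siRNA value lies above the NC value for both AREG probes and below it for each of the 8 other ligand probes measured on at least 1 array, before scaling.

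Against the other probes of the arrays, 743 of the 25345 compared probes were higher by 2-fold or more (2.93%) and 844 were lower (3.33%). Most of those calls came from dim probes, since of the 12373 probes that exceeded 7 log2 units on each array 25 were higher by 2-fold (0.202%). Of 10 compared ligand probes 2 were higher (20%), both of AREG, and 0 were lower. Because AREG was the reason for the choice, nothing can be read from that share. Among the 1228 compared probes whose mean log2 signal lay within 0.5 of that of AREG probe 1, 2 were higher by more, and those probes had a median of 0.07 (SD 0.21). For AREG probe 2, 1 of 753 probes of like signal was higher by more. The 2 AREG spots lay in different regions of the array. When the array was divided into 16 by 8 blocks, 3.81% of the 210 compared probes in the block of probe 1 were higher by 2-fold and 6.67% were lower. In the block of probe 2 these shares were 1.09% and 2.17% of 184 probes. Spike-in scaling turned the split of all calls from 743 higher and 844 lower (46.8% higher) to 570 and 1392 (29.1% higher), and 81.5% of compared probes then had a log2 fold change below 0. With lowess centring, which removes the trend with signal, the split was 856 and 633 (57.5% higher).

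**Figure D2:**
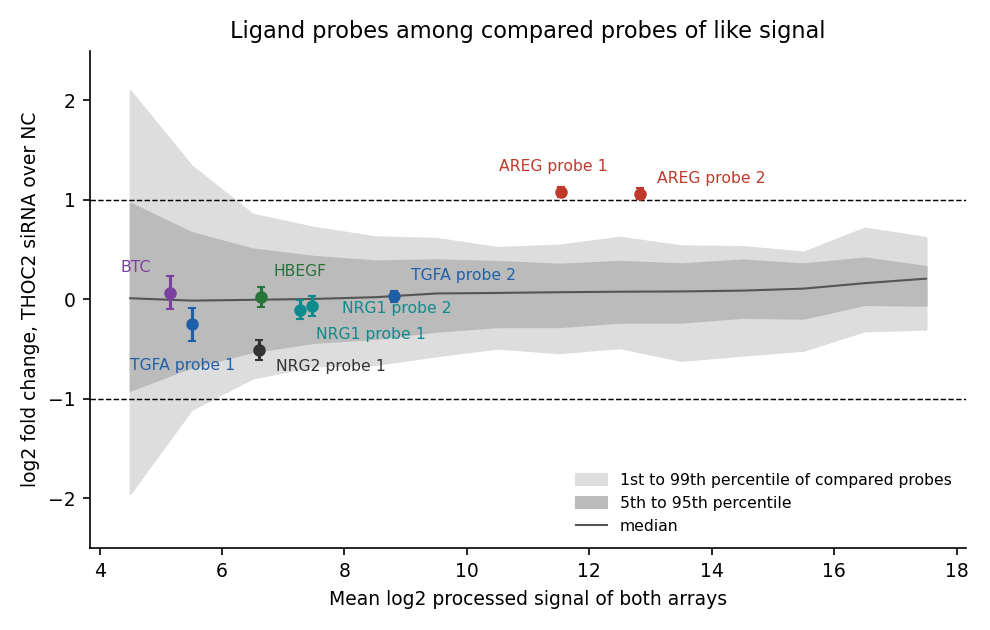
Log2 fold change (THOC2 siRNA over NC) against the mean log2 processed signal of both arrays for the 9 ligand probes well above background on both. Bars are the technical SD of repeated spots at that signal, gray bands are percentiles of all compared probes in steps of 1 log2 unit, and dashed lines mark 2-fold. Both AREG probes lie above the gray bands, and NRG2 probe 1 lies near the lower edge of the inner band.

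The other EGFR ligands with a measurable signal were within 0.3 of 0 on the log2 scale. HBEGF encodes a heparin-binding ligand that also acts as the membrane receptor for diphtheria toxin. Its 1 probe gave 109 ± 11.4 with NC and 89.8 ± 9.64 with THOC2 siRNA, which after scaling is a difference of 0.03 on the log2 scale (technical SD 0.10). TGFA encodes transforming growth factor alpha, a high-affinity EGFR ligand. Its probe 2, the brighter one, gave 494 ± 49.5 and 407 ± 40.8, which is 0.03 after scaling (technical SD 0.05). Its probe 1 went from 55.6 ± 6.32 to 37.7 ± 4.93, or -0.25 (technical SD 0.17). The 2 TGFA probes therefore differed in sign, and the one further from 0 was the dimmer one. BTC encodes betacellulin and gave 38.6 ± 4.97 with NC and 32.7 ± 4.76 with THOC2 siRNA, or 0.07 (technical SD 0.17). For HBEGF, TGFA probe 2 and BTC the difference was smaller than 1 technical SD. With spike-in scaling these probes were all lower with THOC2 siRNA, at -0.25 for HBEGF, -0.52 and -0.24 for TGFA probes 1 and 2, and -0.20 for BTC, so their sign depends on the scaling, except that of TGFA probe 1. The AREG log2 fold change was higher than each of theirs within the same array pair, an order that the choice of scale cannot change. Because the rise of AREG was the reason for choosing the family, this order is a description only.

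Both neuregulins had lower signals on the THOC2 siRNA array, NRG2 by more than NRG1. Before scaling, this also held for every other measured ligand except AREG. NRG1, on chromosome 8, is a ligand of ERBB3 and ERBB4 with a long-standing role in the neural crest lineage. NRG1 probe 1 went from 178 ± 18.0 to 134 ± 13.7 and probe 2 from 203 ± 20.5 to 156 ± 15.9. Their log2 fold changes were -0.10 and -0.07 with a technical SD of 0.10, and -0.38 and -0.34 with spike-in scaling. A larger decrease than in NRG1 probes 1 and 2 was seen in 34.1% and 38.0% of compared probes of like signal. NRG2 is a close relative of NRG1 with a more restricted expression. NRG2 probe 1 went from 130 ± 13.3 to 73.5 ± 8.08. The modeled error ranges did not overlap, but neither did those of both NRG1 probes and TGFA probe 1. These ranges are of signals before scaling, so they do not set NRG2 apart. Its log2 fold change was -0.51 (0.701-fold, technical SD 0.10), or -0.78 with spike-in scaling, under 2-fold on either scale. A larger decrease was seen in 5.05% of the 3130 compared probes of like signal. The block of the array that holds this probe had 12.6% of its 215 compared probes lower by 2-fold and 0% higher, with a block median of -0.06, and the part of position in this value was not tested further than by centring on that median, which gave -0.45. NRG2 probe 2 gave 15.9 ± 3.44 with NC, close to the dimmest signal marked as well above background there (14.7), and 7.60 ± 3.46 with THOC2 siRNA, where it was not well above background. No fold can be given for it, since its limit on the THOC2 siRNA array was 15.9.

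EREG, EGF and EPGN were not well above background on either array, so no fold is given for them. EREG encodes epiregulin and is the nearest ligand gene to AREG, 64.3 kb away. It gave 4.81 with NC and 11.5 with THOC2 siRNA, both below the dimmest marked signals of 14.7 and 15.9. EGF, the founding member of the family, had signals of 2.93 and 3.18. EPGN encodes epigen and had signals of 3.24 and 3.48. Signals of different probes cannot be compared as RNA levels, because probes differ in how strongly they hybridise, so no order of the ligands by level is given. Over the 10 compared ligand probes the median log2 fold change was -0.02, and over the 8 that are not of AREG it was -0.09, beside 0.03 for all compared probes. Of these 8 probes, 4 were within 0.1 of 0. With spike-in scaling the median of the 10 was -0.29, beside -0.25 for all compared probes, and 8 of 10 were below 0. The order of the ligand probes by log2 fold change ran from both AREG probes through a group between BTC at 0.07 and TGFA probe 1 at -0.25, in which each probe differed from the next by less than the larger of their technical SDs, to NRG2 probe 1.

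**Figure D3:**
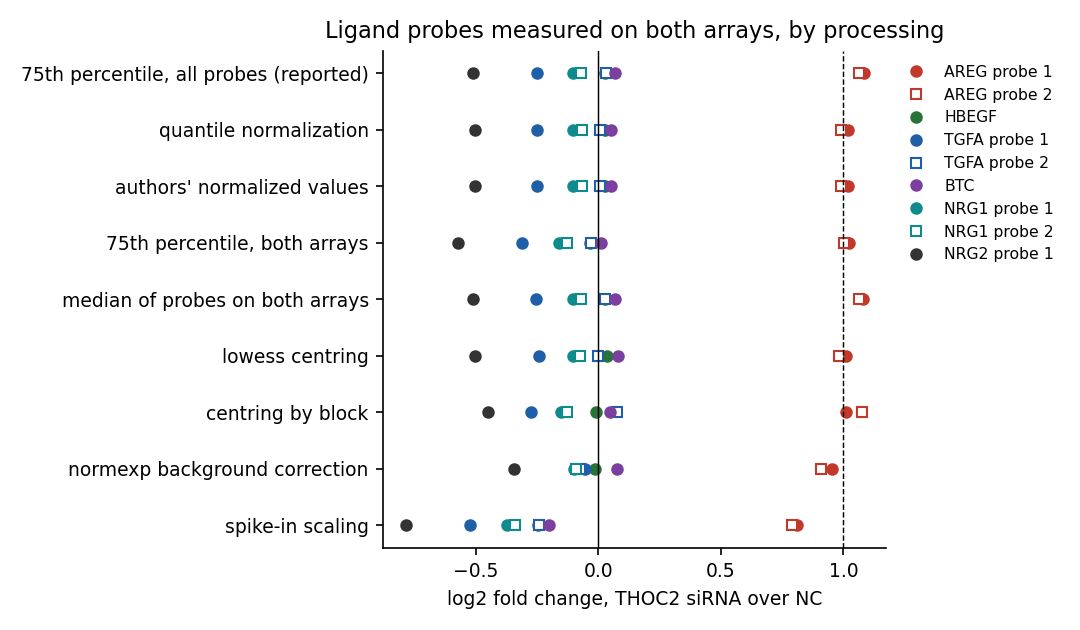
Log2 fold change (THOC2 siRNA over NC) of the 9 ligand probes well above background on both arrays, under the reported scaling and 8 other ways of processing. Both AREG probes lie near or above the dashed 2-fold line except with normexp background correction and spike-in scaling, and stay above 0 in each row. NRG2 probe 1 is the lowest in each row, and HBEGF, BTC and TGFA probe 2 lie close to 0 except with spike-in scaling.

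The genes around AREG that could be compared were not higher by a similar amount. The nearest of their probes, of CXCL2, lay 354 kb from AREG probe 1, and no closer gene could be compared. Within 1 Mb of the AREG probes, the deposited annotation places 36 probes of 29 other genes that are not ligands of the family, and 10 probes of 8 genes were compared, each well above background on both arrays. None of the 10 was called in either direction. Of all compared probes 2.93% were called higher and 3.33% lower, so 0 calls in 10 probes says little. Their median log2 fold change was 0.21 (-0.06 with spike-in scaling), beside 0.03 (-0.25) for all compared probes. Several are CXCL chemokines, which attract neutrophils and are common products of melanoma cells. The 2 CXCL1 probes were at 0.24 and 0.27, the 2 CXCL2 probes at 0.34 and 0.24, CXCL8 at 0.18, CXCL3 at 0.09 and CXCL5 at -0.03. RASSF6, which encodes a RAS association domain protein, was at 0.16, and the transcripts LOC100506253 and LOC441025 were at 0.44 and -0.32. Of these 10 probes 8 were above 0 with the reported scaling and 3 with spike-in scaling, under which 81.5% of all compared probes were below 0. BTC, 358 kb from AREG, was at 0.07. On the other side, EPGN, 139.5 kb away, and EREG, 64.3 kb away, had no measurable signal. The remaining 26 probes were not well above background on either array. They belong to AFP, AFM, LOC728040, CXCL6, PF4V1, PF4, PPBP, PPBPP2, MTHFD2L, LOC541467, PARM1, LOC100507388, XLOC_l2_010717, a second LOC441025 probe and lnc genes of the array's own annotation.

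**Figure D4:**
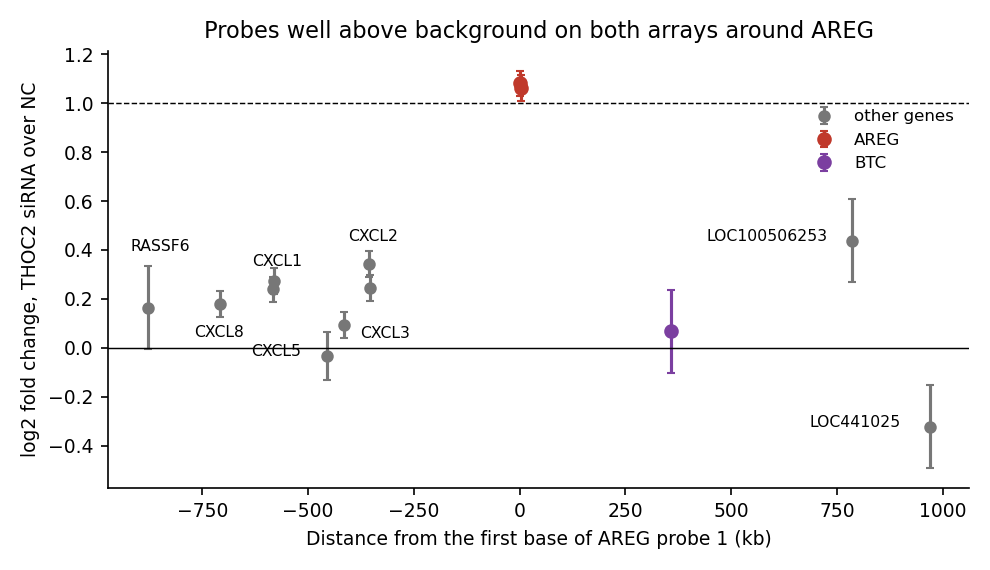
Log2 fold change (THOC2 siRNA over NC) against distance in kb from the first base of AREG probe 1, for probes within 1 Mb that were well above background on both arrays. Bars are the technical SD of repeated spots at that signal and the dashed line marks 2-fold. The AREG probes are above 1, and all other points lie between -0.32 and 0.44.

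The upstream sequence of AREG is shown because the 4 ligand genes of the cluster can be compared in it, although these arrays did not measure binding. In the RefSeq promoter windows (GRCh38.p14), which run from 250 bases before to 50 bases after a gene's start, 10 windows of 8 ligand genes were searched on both strands, NRG1 being left out. The cAMP response element (CRE, TGACGTCA) was found in 1 window, that of AREG, at bases -65 to -58 from the start. It occurred in 649 of 35116 windows of all genes (1.85%). Its 5-base core TGACG, which overlaps the full element in AREG, was found in 4 of the 10 windows, those of AREG, EPGN, EREG and 1 of TGFA, and in 24.6% of all windows. The TATA box TATAAA was found in AREG at -29 to -24 and in EPGN and EREG, and in 11.5% of all windows. The AP-1 motif TGANTCA was found in 1 window, that of EGF, and in 7.71% of all windows. A match is a string of letters and not a measured site. The 250 bases before the AREG start, at chr4:74444886-74445135 on the plus strand, are given 5′ to 3′ with the CRE and the TATA box in capitals.
AREG upstream: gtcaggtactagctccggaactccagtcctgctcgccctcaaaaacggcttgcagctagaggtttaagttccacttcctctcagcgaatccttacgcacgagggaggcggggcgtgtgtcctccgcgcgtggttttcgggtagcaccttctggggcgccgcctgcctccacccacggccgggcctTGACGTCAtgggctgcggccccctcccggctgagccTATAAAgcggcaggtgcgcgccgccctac

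No receptor gene for these ligands reached 2-fold. EGFR, the receptor of AREG, had 2 compared probes, which went from 48.8 to 28.9 and from 75.7 to 73.7. Their log2 fold changes were -0.44 and 0.27, so the probes differed from each other by more than their technical SDs of 0.17 and 0.10. With spike-in scaling they were -0.71 and -0.002. A further EGFR probe was not well above background on either array. ERBB2, the partner receptor without a ligand of its own, had probes at 0.04 (1197 to 993) and 0.18 (78.8 to 72.2). ERBB3, the neuregulin receptor with little kinase activity, went from 2759 to 1952 (-0.19) and from 638 to 466 (-0.14) in its 2 bright probes, while a dim probe went from 20.2 to 24.8 (0.60). ERBB4, as well as the other neuregulin genes NRG3 and NRG4, was not well above background on either array. With spike-in scaling the mean over compared probes was below 0 for EGFR, ERBB2 and ERBB3 (-0.36, -0.16 and -0.18).

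Genes that release the ligands or carry their signal were also close to the median of all genes, which was 0.02 over 17514 compared genes with 518 higher and 585 lower by 2-fold, and 9350 above 0 (3112 with spike-in scaling). Of 19 genes for ligand sheddases and their carriers 18 were compared, and 0 were called in either direction, with a median of 0.01 and 11 above 0 (3 with spike-in scaling). ADAM17, the main sheddase of AREG, went from 611 to 455 (-0.11), and its carriers RHBDF1 and RHBDF2, the inactive rhomboids, were at -0.02 and 0.01. ADAM10, which sheds EGF and BTC, was at 0.30. No ADAM12 probe was well above background on both arrays, so no value is given for it. Of 26 receptor adaptors and RAS-ERK core genes 25 were compared, 0 were called and the median was 0.11, with 20 above 0 (4 with spike-in scaling). In that list 1 of 2 PIK3CA probes went from 18.2 to 6.82, where it was not well above background, so it gives no fold, and the other was at 0.16.

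Feedback inhibitors and genes that EGFR signaling can switch on were listed as well. Signals other than EGFR can also drive such genes, and EGFR activity was not measured, so their values do not show whether it changed. Of 18 feedback inhibitors 17 were compared, and 0 were called, with a median of 0.13 and 10 above 0 (6 with spike-in scaling). ERRFI1, which binds and inhibits EGFR, was at 0.29, and the ERK phosphatases DUSP4, DUSP5 and DUSP6 were at 0.39, 0.49 and 0.19. SPRY1, a sprouty inhibitor of RAS signaling, had the highest value of the list at 0.77, and SOCS4 the lowest at -0.41. All 30 listed genes that EGFR signaling switches on were compared, and 1 was higher and 1 lower by 2-fold, with a median of 0.15 and 21 above 0 (3 with spike-in scaling). Outside these called genes the values ran from VGF at -0.33 and PHLDA1 at -0.23 to IER3 at 0.29 and MYC at 0.33. The immediate early genes FOSB, FOS and EGR1 were at 0.24, -0.03 and 0.01, and the cell cycle gene CCND1 was at -0.02. Of the 2 called genes, both cytokines of the interleukin 6 family, IL6 went from 244 to 432 (1.13, or 0.86 with spike-in scaling) and IL11 from 13659 to 4981 (-1.15, or -1.42). They moved in opposite directions, and both also respond to signals other than EGFR. With spike-in scaling the medians of the 4 pathway lists were -0.27, -0.16, -0.14 and -0.12, in the order given, beside -0.25 for all compared genes.

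**Figure D5:**
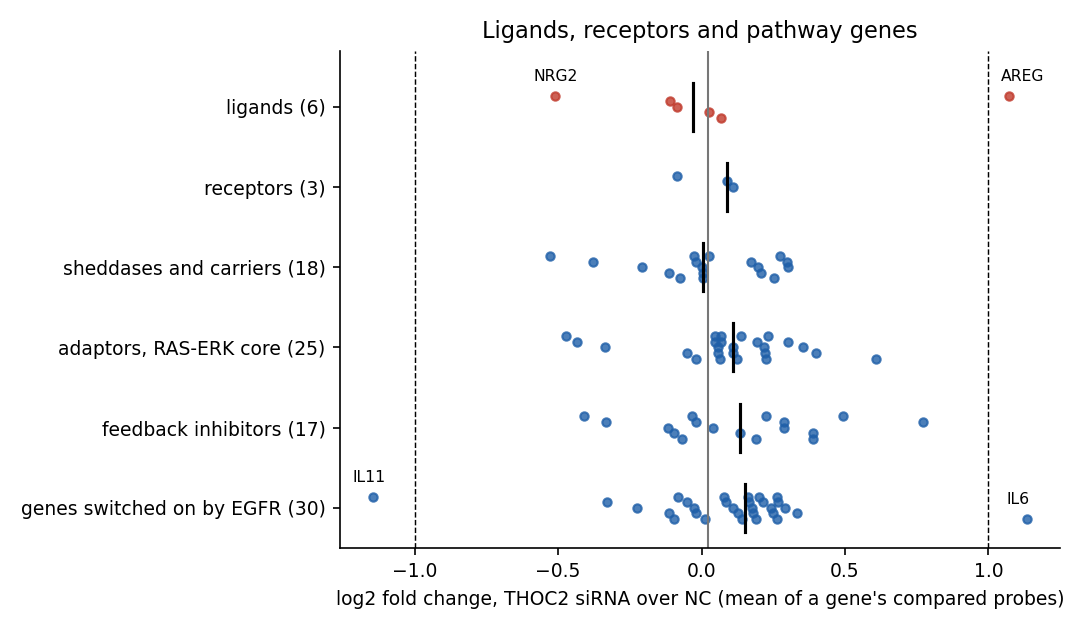
Log2 fold change (THOC2 siRNA over NC) of each compared gene of the ligand family and of 5 lists of receptors and pathway genes, with the number of genes in brackets. Ligand means use the probes measured on both arrays, while list means also use those measured on 1 array. Black bars are list medians, the gray line is the median of all compared genes (0.02), and dashed lines mark 2-fold. AREG, IL6 and IL11 are the only genes shown beyond 2-fold.

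Markers of other cell types were examined because ligands of this family are also made by keratinocytes and stromal cells. Both samples were cultures of the A375 line, with no other cell type in the design. A marker's signal therefore does not show that cells of that type were present. In bulk RNA, fewer cells of a type and less RNA per cell cannot be told apart. Of 8 keratinocyte and epithelial markers 2 were well above background on both arrays, KRT10 and KRT14, while KRT5, KRT1, TP63, CDH1, EPCAM and DSG3 were not on either array. Over all probes of these 8 markers, those at background included, signals summed to 32420 with NC and 20774 with THOC2 siRNA. Nearly all of that came from KRT10 (log2 fold change -0.34). KRT14 went from 83.9 to 104 (0.62) in the probe measured on both arrays. Its other probe went from 11.9, not well above background, to 26.9 with THOC2 siRNA, where it was well above. The median of the list's compared probes was 0.62, with this other probe counted at 1.49. Of 6 fibroblast markers 2 were on both arrays, DCN and PDGFRB, and the sum over all probes of the 6 was 271 and 293. DCN, which encodes the proteoglycan decorin, went from 62.4 to 149 in 1 of its 2 probes (log2 fold change 1.56), the other being at background. PDGFRB went from 168 to 109 (-0.32) and from 21.5 to 18.8 (0.12) in its 2 probes, and the median of the list's compared probes was 0.12. COL1A1, COL1A2, COL3A1 and LUM were not on either array. Of the 4 leukocyte markers on the array 3 were well above background on both arrays, CD14, CD3E and PTPRC. PTPRC passed only in the probe that went from 27.4 to 28.9, and its other probes were at background. CD3E went from 25.3 to 37.4 (0.87), and the median of the list's compared probes was 0.39. Of 4 endothelial markers 2 were on both arrays, KDR and PECAM1, and the median was -0.20. PECAM1 passed only in the probe that went from 16.2 to 17.6, close to the dimmest marked signals of 14.7 and 15.9. Summed over all probes of each list, signals were 92.8 and 108 for leukocyte and 143 and 124 for endothelial markers. The part of DCN or KRT14 in the AREG difference was not tested.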

How the data were processed

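RNA of A375 cells from 1 culture per condition was measured on single-color Agilent SurePrint arrays, 1 per condition. The authors extracted the deposited spot intensity values with Agilent Feature Extraction 10.7.1.1, per the submitters' processing notes, which gives a background-subtracted processed signal, its error estimate and marks for outlier, saturated and well-above-background spots. Normalized log2 values, which the authors deposited for each array, served as an alternative, and the table of their own comparison, with fold changes, was not used.

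Control spots and outlier spots (230 and 253) were left out and no spot was saturated. Repeated spots were averaged as log2 values, the 75th percentile of each array was subtracted, and the probes compared were those marked as well above background on either array. A difference of 2-fold was called. The methods' Student's test needs replicate arrays and was not run. The number of arrays limits the precision. Technical SDs are medians over probes with repeated spots of like signal (244 probes with a log2 signal over 8, 36 from 6 to 8, 5 from 4 to 6 and 15 below 4). The calculation was tested on simulated data.

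The members and lists were chosen with earlier results of these data known. Named genes are the ligands, THOC2, the receptors, genes of the pathway lists with a called probe and the neighbors of AREG within 1 Mb. The 5 genes nearest to AREG in signal, also part of that rule, are left out because signals of different probes cannot be compared as RNA levels. Other genes of the lists were named after their values were seen. Alternatives were quantile normalization, the 75th percentile or median over probes on both arrays, lowess (span 0.3), centring by block, normexp (offset 50), setting dim signals to their limit, a stricter or no detection filter, the authors' normalized values, a fold of 3 and, added after the data were seen, scaling on 8 of 10 spike-in controls with a signal over 50. The tools were limma 3.58.1 in R 4.3.3, and numpy 2.4.6, statsmodels 0.14.6 and pandas 2.3.3 in Python 3.11.15. Probe positions are those of the deposited annotation (hg19), and promoter sequences are from RefSeq (GRCh38.p14).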

Additional observations from a re-analysis of the deposited data

How the results depend on the processing

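The AREG mean log2 fold change was above 0 in each of 11 alternatives, and at 2-fold or more in 8. The AREG mean was 1.003 with quantile normalization and with the authors' normalized values, and 1.01 with the 75th percentile over probes on both arrays. With lowess centring it was 0.998, with normexp 0.93 and with spike-in scaling 0.80. The number of ligand probes higher by 2-fold went from 2 to 1 with lowess centring, quantile normalization and the authors' values, and to 0 with normexp, spike-in scaling and a fold of 3. With spike-in scaling 1 ligand probe, NRG2 probe 2, was lower by 2-fold, but it has no fold that can be given. Over all compared probes, 743 higher and 844 lower became 79 and 33 with normexp, 184 and 81 over probes on both arrays only, 3127 and 1929 with no detection filter, 476 and 225 with dim signals set to their limit, 570 and 1392 with spike-in scaling, and 447 and 502 at a fold of 3. With no detection filter EREG was counted as higher as well. TGFA probe 1, both NRG1 probes and NRG2 probe 1 were below 0 in 11 of 11 alternatives. HBEGF and TGFA probe 2 were above 0 in 7 and below 0 in 4, and BTC was above 0 in 10. These counts include the filter and limit settings, which cannot change probes that were well above background on both arrays. No paired analysis was possible because each condition was hybridised once. Dim signals limit EREG, EGF, EPGN and NRG2 probe 2, for which these arrays give no fold.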
